A study of Mus musculus with 4 samples.

Results

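The cathepsin proteases described here are 10 genes of the mouse: Ctsa, Ctsb, Ctsc, Ctsd, Ctsf, Ctsh, Ctsk, Ctsl, Ctss and Ctsz. They were chosen by symbol from the 24421 genes of the read-count table, and DPPIV+ were compared with DPPIV- fibro-adipogenic progenitors (FAPs) within each mouse. FAPs are the mesenchymal stromal cells of skeletal muscle, and DPPIV (Dpp4) is a surface peptidase that divides them. All 10 genes were among the 11588 genes with at least 2 CPM (a gene's reads per 1000000 reads of its library) in at least 2 libraries, which were the genes tested.

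The study asked about the niche of self-renewing resident macrophages in muscle, and its data here are 4 bulk RNA-seq libraries, of DPPIV- and DPPIV+ FAPs of 2 mice. Both mice were wild-type and received an inhibitor of CSF1R, the receptor that macrophages need for survival, for 3 weeks and then regular diet for 3 days. Every library therefore comes from a treated mouse, and no untreated group was analysed here. FAPs were sorted as live CD31- CD45- Sca1+ cells by their DPPIV, and the labels name the tibialis anterior as the tissue while the protocol describes both hindlimbs. Ages, sexes and strains of the 2 mice were not given in the labels used here.

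The libraries held 18240110 to 20879405 counted reads, so that 3 reads, the limit that a count of 0 allows, corresponded to 0.143 to 0.167 CPM. The reads carry no molecular identifiers, and this limit covers counting error only. Dpp4 itself, the gene of the sort, stood at 89.8 and 39.7 CPM in the DPPIV- FAPs of mouse 1 and of mouse 2 and at 728 and 575 CPM in the DPPIV+ FAPs. The FAP markers Pdgfra, Ly6a (which encodes Sca1), Dcn and Lum were at 962 CPM or more in all 4 libraries.

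Cathepsins are proteases of the endosome and lysosome. They are made as inactive precursors, sorted mostly by the mannose 6-phosphate receptors and activated by cleavage in the acid that the vacuolar ATPase maintains, and secreted cathepsins also act on extracellular matrix. Most are papain-like cysteine proteases, which cystatins inhibit, whereas Ctsd encodes an aspartic and Ctsa a serine protease. In macrophages and other antigen-presenting cells several of them process antigens and MHC class II, and in fibroblasts they take part in the turnover of internalized collagen.

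In DPPIV+ FAPs, 4 of the 10 cathepsins were lower than in DPPIV- FAPs and 0 were higher. The 4 were Ctsc, lower by 2.31-fold, Ctsk by 1.45-fold, Ctss by 1.30-fold and Ctsz by 1.22-fold. The other 6 (Ctsa, Ctsb, Ctsd, Ctsf, Ctsh and Ctsl) did not pass the test. These calls are from edgeR's quasi-likelihood test with mouse in the model, at a Benjamini-Hochberg adjusted p under 0.05 over all genes tested. Of all genes tested, 17.2% were called lower and 15.9% higher, and the median log2 fold change of the 10 cathepsins was -0.13 beside -0.00 for all genes. At an unadjusted p under 0.05, edgeR, DESeq2 and limma-voom likewise found 0 higher. The study's own test, DESeq2's Wald test, called 3 of the cathepsins lower, without Ctss, and 8.59% of all genes. Only Ctsc was called when the test was against a change of 1.5-fold, by which 5.66% of all genes were lower.

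Levels of the genes were set side by side as CPM per kb of transcript, a scale that allows for gene length. The length was that of the best-supported transcript, and the order of the most abundant genes depended on it. By this measure Ctsl, an endopeptidase of broad specificity, was highest, at 466 ± 58.0 CPM per kb in DPPIV- and 495.5 ± 17.8 in DPPIV+ FAPs (SD, n = 2 mice, as for all means here). Ctsb, an endopeptidase that also acts as a dipeptidyl carboxypeptidase, followed with 298.5 ± 29.3 and 287 ± 1.66, and Ctsd with 285 ± 28.7 and 274.5 ± 2.46. Ctsb and Ctsd differed from each other by less than their spread in DPPIV- FAPs. Ctsk came next in DPPIV- FAPs with 248 ± 20.8 CPM per kb, ahead of Ctsz with 191 ± 5.79, and in DPPIV+ FAPs they had 171 ± 12.7 and 156 ± 0.547. Ctsh, Ctsa, Ctsf and Ctss lay in between, from 97.4 ± 11.6 CPM per kb for Ctsh to 32.6 ± 13.1 for Ctss in DPPIV- FAPs, and Ctsf and Ctss overlapped there. Ctsc was lowest in both cell types, with 14.1 ± 1.50 and 6.12 ± 0.526 CPM per kb. With the union of all annotated exons as the length, an alternative chosen after seeing the data, Ctsl had only 142 ± 17.6 CPM per kb in DPPIV- and 150.5 ± 5.37 in DPPIV+ FAPs and came after Ctsd, Ctsk, Ctsb and Ctsz. Ctsd was then highest in DPPIV- FAPs with 258 ± 25.9 CPM per kb, within the spread of Ctsk (248 ± 20.7) and Ctsb (234 ± 22.9), and Ctsc remained the lowest (6.07 ± 0.643). In CPM, Ctsb ranked between 70th and 89th of the 11588 genes in the 4 libraries, and Ctsk ranked 310th and 351st in DPPIV- FAPs and 579th and 519th in DPPIV+ FAPs.

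**Figure D1:**
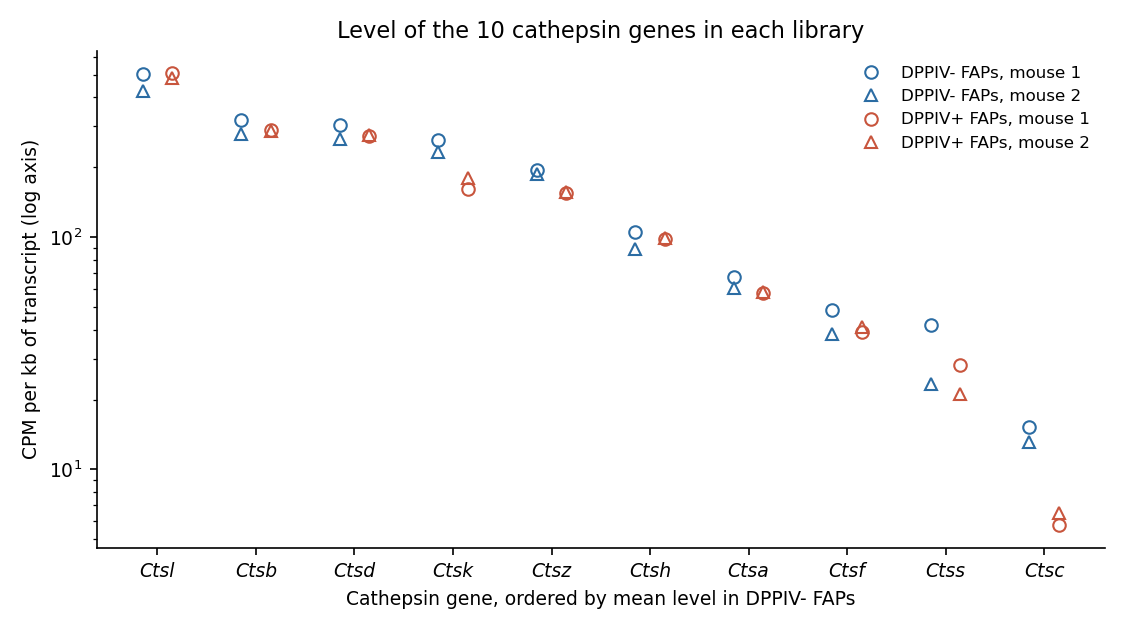
CPM per kb of the best-supported transcript (log axis) of the 10 cathepsin genes in each library, with DPPIV- FAPs in blue, DPPIV+ FAPs in red, mouse 1 as circles and mouse 2 as triangles. Ctsc and Ctsk lie lower in both red libraries than in both blue ones, while the red and blue points of Ctsb, Ctsd and Ctsl overlap.

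Ctsc encodes dipeptidyl peptidase I, which removes dipeptides from the amino end of proteins and activates the granule serine proteases of leukocytes. The gene lies on chromosome 7 (88278085-88310888, plus strand, GRCm38). It had 37.9 CPM in the DPPIV- FAPs of mouse 1 and 32.6 in those of mouse 2, against 14.3 and 16.2 in the DPPIV+ FAPs (793 and 638 reads against 258 and 295). Both DPPIV+ libraries were far below both DPPIV- libraries. The means were 35.3 ± 3.73 and 15.3 ± 1.31 CPM, and the log2 fold change was -1.21 (SE 0.10, edgeR adjusted p = 1.35e-32), with -1.40 in mouse 1 and -1.01 in mouse 2. Ctsc was called in 10 of 10 tested settings of the analysis, with adjusted p from 2.60e-34 to 0.000436.

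Ctsk encodes the cathepsin that cleaves triple-helical collagen and is best known from osteoclasts. It lies on chromosome 3 (95499256-95509362, plus strand). Its levels were 397 and 352 CPM in the DPPIV- FAPs of mouse 1 and of mouse 2 and 244 and 272 CPM in the DPPIV+ FAPs. The cell types did not overlap, at means of 375 ± 31.4 and 258 ± 19.2 CPM. The log2 fold change was -0.54 (SE 0.07, edgeR adjusted p = 2.91e-14), with -0.70 in mouse 1 and -0.38 in mouse 2. As a share of the CPM of all 10 cathepsins, Ctsk made up 9.07% and 9.33% in DPPIV- and 6.34% and 7.10% in DPPIV+ FAPs.

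Ctsz encodes cathepsin X, a carboxypeptidase that removes single residues, and lies on chromosome 2 (174427493-174439039, minus strand). It had 281 and 269 CPM in the DPPIV- FAPs of mouse 1 and of mouse 2 and 224 and 225 CPM in the DPPIV+ FAPs. The difference was small but larger than the spread between mice, with both DPPIV+ libraries below both DPPIV- libraries. The log2 fold change was -0.29 (SE 0.07, edgeR adjusted p = 7.75e-05), with -0.33 in mouse 1 and -0.26 in mouse 2. Like that of Ctsk, it was called in 9 of 10 tested settings, all but the test against 1.5-fold.

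Ctss encodes a cathepsin of antigen-presenting cells that degrades the invariant chain of MHC class II. It neighbours Ctsk on chromosome 3 (95526786-95556403), on the same strand, with 17423 bases between the genes. Its levels were 56.7 and 31.6 CPM in the DPPIV- FAPs of mouse 1 and of mouse 2 and 38.2 and 28.5 CPM in the DPPIV+ FAPs. The cell types overlapped, since the DPPIV+ FAPs of mouse 1 were above the DPPIV- FAPs of mouse 2, although within each mouse the DPPIV+ value was the lower one. The log2 fold change was -0.38 (SE 0.08, edgeR adjusted p = 2.00e-05), with -0.57 in mouse 1 and only -0.15 in mouse 2. The call was lost with DESeq2 (adjusted p = 0.139) and in edgeR without mouse in the model (adjusted p = 0.373). Ctss was also the 1 cathepsin of the 10 that differed between the mice, lower in mouse 2 by a log2 fold change of -0.65 (SE 0.08, edgeR adjusted p = 4.09e-13), where 8.98% of all genes tested differed.

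For the other 6 cathepsins the fitted log2 fold changes lay between -0.14 and 0.09. Their 95% intervals, from the fit's own standard errors, reached no further than -0.27 on the lower and 0.23 on the upper side. Those errors come from a spread shared across genes, not from each gene's own spread between the 2 mice. For Ctsf, the log2 ratios were -0.32 in mouse 1 and 0.10 in mouse 2. A change of 1.5-fold lay outside each interval, but intervals of this kind over 2 mice cannot exclude it. Ctsa, the serine carboxypeptidase that protects the neuraminidase Neu1 and the galactosidase Glb1 in the lysosome, had 171 and 152 CPM in the DPPIV- FAPs of mouse 1 and of mouse 2 and 146 and 147 CPM in the DPPIV+ FAPs. These values did not overlap, but the log2 fold change of -0.14 did not pass (edgeR adjusted p = 0.0957), except with upper-quartile scaling (adjusted p = 0.0236).

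Ctsb had 1514 and 1318 CPM in the DPPIV- and 1367.5 and 1356 CPM in the DPPIV+ FAPs of mouse 1 and mouse 2, a log2 fold change of -0.05 (SE 0.07, edgeR adjusted p = 0.650). Ctsd, the major aspartic protease of the lysosome, had 650 and 564 CPM against 580 and 588, a log2 fold change of -0.05 (adjusted p = 0.639). Ctsl had 999.9 and 838 CPM against 1002 and 952, a log2 fold change of 0.09 (adjusted p = 0.352). In all 3 the DPPIV+ values lay within or overlapped the range of the DPPIV- values. Ctsf, a cysteine protease with a long propeptide, had 96.4 and 76.0 CPM against 77.3 and 81.2 (log2 fold change -0.11, adjusted p = 0.190). Ctsh, an aminopeptidase, had 171 and 144 CPM against 159.7 and 161 (log2 fold change 0.03, adjusted p = 0.778). For both, the higher value among the DPPIV- FAPs was that of mouse 1. Of these genes, Ctsd lies on chromosome 7 (142375911-142388038, minus strand), Ctsl on chromosome 13 (64359337-64370890, minus strand), Ctsf on chromosome 19 (4855130-4860918, plus strand) and Ctsh on chromosome 9 (90054152-90076089, plus strand).

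The per-mouse values differed in the same way for the whole group. In each of the 10 cathepsins the log2 ratio of DPPIV+ over DPPIV- FAPs was lower in mouse 1 than in mouse 2, as it was in 53.2% of all genes tested. Their median ratio was -0.27 in mouse 1, where 9 of 10 were below 0, and -0.00 in mouse 2, where 5 of 10 were. Of all genes tested, 50.8% were below 0 in mouse 1 and 49.9% in mouse 2, so the count in mouse 2 was near that share. The 5 below 0 in both mice, a count whose share over all genes was not taken, were Ctsa, Ctsc, Ctsk, Ctss and Ctsz. In 4 of them, all but Ctss, both DPPIV+ libraries were below both DPPIV- libraries, as in 28.6% of all genes tested. The 10 genes summed to 4374 and 3777 CPM in the DPPIV- FAPs of mouse 1 and of mouse 2 and to 3853 and 3826 CPM in the DPPIV+ FAPs, so that the DPPIV- FAPs of mouse 1 stood above the other 3 libraries, which lay close together.

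**Figure D2:**
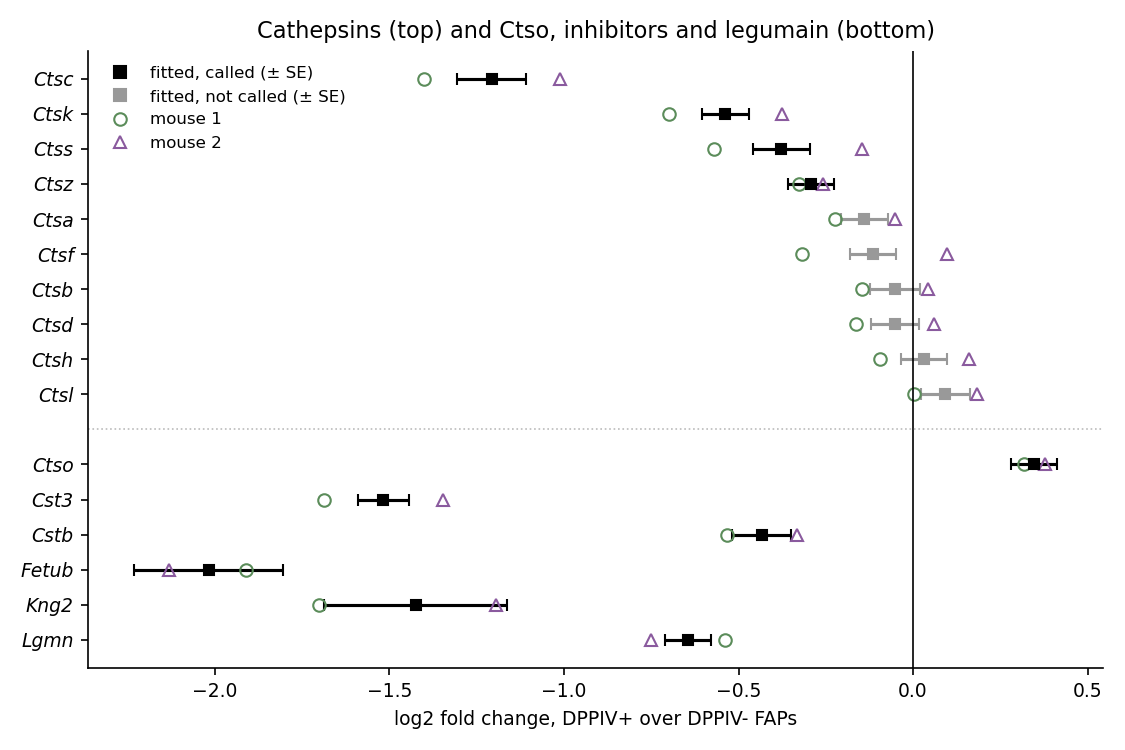
Log2 fold change of DPPIV+ over DPPIV- FAPs for the 10 cathepsins (top) and for Ctso, 4 inhibitors and Lgmn (bottom); squares are the fitted values with their SE, black where called and grey where not, and open circles and triangles are the ratios in mouse 1 and mouse 2. Ctsc lies apart from the other cathepsins at -1.21, and Cst3, Fetub and Kng2 lie further left than any cathepsin.

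Macrophages express Ctss, Ctsc, Ctsz and other cathepsins strongly, and CD45+ cells were gated out of the sort, so macrophage markers were read in the same libraries. In this bulk RNA, fewer cells of a type and less RNA per cell cannot be told apart. The 20 markers summed to 497.5 and 302 CPM in the DPPIV- FAPs of mouse 1 and of mouse 2 and to 329 and 280 CPM in the DPPIV+ FAPs. None was at 0 in all libraries. Timd4, which marks the self-renewing macrophages, had 3 reads in 1 library and 0 in the others, and Ptprc, which encodes CD45, had 9.75 and 7.11 CPM against 6.66 and 6.42. Of the 16 markers tested, 8 were lower in DPPIV+ FAPs and 0 higher by edgeR, with a median log2 fold change of -0.33, and DESeq2 called 0 of them, with 2 lower at an unadjusted p under 0.05. Their median log2 ratio was -0.53 in mouse 1 and -0.09 in mouse 2.

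The 4 values of Ctss followed the summed macrophage markers, whereas those of Ctsc did not. Lyz2 was the largest part of that sum, with 220 and 125 CPM in DPPIV- FAPs of mouse 1 and of mouse 2. In DPPIV+ FAPs it had 131 and 121 CPM. Ctss CPM divided by the marker sum was 0.114 and 0.105 in DPPIV- FAPs of mouse 1 and of mouse 2 and 0.116 and 0.102 in DPPIV+ FAPs. The same quotient for Ctsc was 0.0762 and 0.108 in DPPIV- FAPs and 0.0435 and 0.0578 in DPPIV+ FAPs, so that it remained lower in DPPIV+ FAPs within each mouse. For Ctsk it was 0.797 and 1.17 against 0.742 and 0.969, lower in the DPPIV+ FAPs of each mouse, and for Ctsz 0.564 and 0.891 against 0.679 and 0.802, higher in mouse 1 and lower in mouse 2. These quotients are a description of 4 libraries, and the part of macrophage RNA in the cathepsin differences was not tested.

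**Figure D3:**
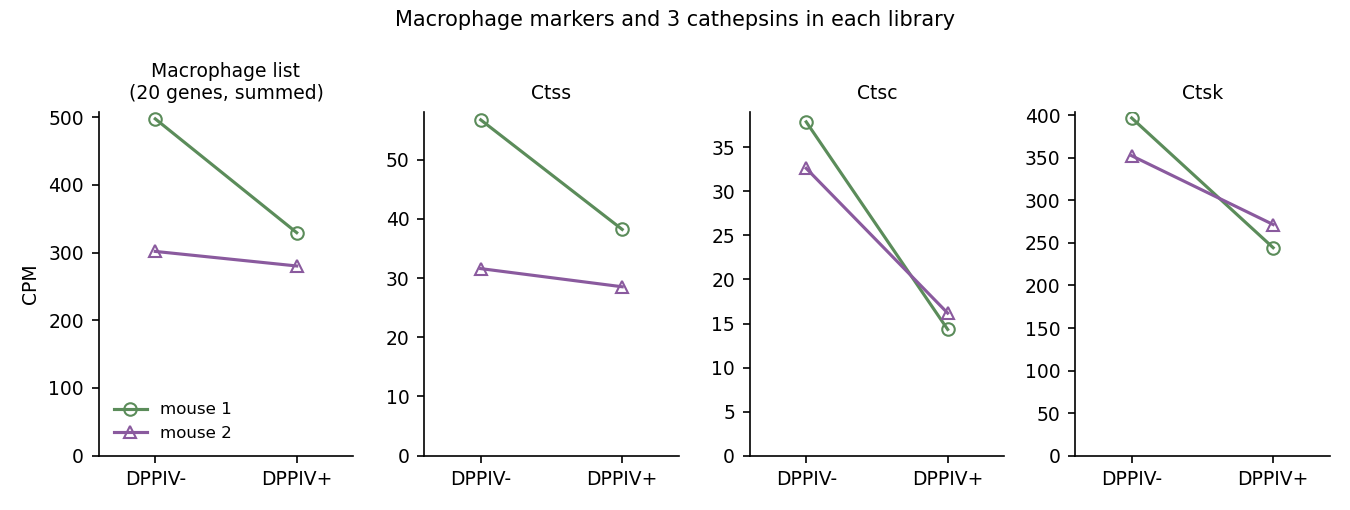
Summed CPM of the 20 macrophage markers and CPM of Ctss, Ctsc and Ctsk in DPPIV- and DPPIV+ FAPs, with a line for each mouse and axes from 0. The lines of the marker sum and of Ctss are steep in mouse 1 and nearly flat in mouse 2 (Ctss 31.6 and 28.5 CPM), while those of Ctsc are steep in both.

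Markers of mural cells, the pericytes and smooth muscle of vessels, were lower in DPPIV+ FAPs as well. They summed to 121 and 123 CPM in the DPPIV- FAPs of mouse 1 and of mouse 2 and to 51.2 and 63.5 CPM in DPPIV+ FAPs, with 5 of 6 lower (3 by DESeq2), 0 higher and 0 at 0 in all libraries. The 6 tenocyte markers, with 4 higher and 2 lower (4 and 0 by DESeq2), summed to 1975 and 2639 CPM against 2003 and 3965, and 0 were at 0 in all libraries. Endothelial markers, with 4 of 7 tested lower and 1 higher (1 and 1 by DESeq2), summed to 542 and 455 CPM against 697 and 652. The higher sum rested on Tek, an angiopoietin receptor gene, with 187 and 149 CPM in DPPIV- and 467 and 427 CPM in DPPIV+ FAPs. Without it the other 7 markers summed to 355 and 306 against 231 and 225 CPM. Most of that sum was Eng, with 288 and 269 against 189 and 189 CPM. Of the rest, Cdh5 was lower in the DPPIV+ FAPs of both mice. Pecam1, Kdr, Tie1, Emcn and Cldn5 were lower in mouse 1 only, and in mouse 2 they were level (Pecam1) or higher. Tek and Eng were singled out after their values were seen. The part of these cells in the cathepsin values was not tested. Of the 8 FAP markers themselves, 6 were lower in DPPIV+ FAPs and 1, Ly6a, was higher.

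Among the inhibitors of cysteine cathepsins, Cst3 was lower in DPPIV+ FAPs by more than any of the proteases. Of 15 genes of cystatins and related proteins, 13 were in the table, 5 were at 0 in all libraries and 4 were tested, and all 4 were lower in DPPIV+ FAPs (median log2 fold change -1.47). Cst3, the gene of cystatin C, a secreted inhibitor of most cysteine cathepsins, had 1272 and 1223 CPM in the DPPIV- FAPs of mouse 1 and of mouse 2 and 395 and 481 CPM in the DPPIV+ FAPs. It was thus 2.86-fold lower, with no overlap and a log2 fold change of -1.52 (SE 0.07, edgeR adjusted p = 6.47e-95), -1.69 in mouse 1 and -1.35 in mouse 2.

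Cstb, the gene of the intracellular inhibitor stefin B, had 39.9 and 37.7 CPM in DPPIV- cells against 27.5 and 29.9 CPM in DPPIV+ cells (log2 fold change -0.43, SE 0.08, edgeR adjusted p = 2.22e-06). The other pair was scarce. Fetub, which encodes fetuin-B, a member of the cystatin superfamily known to inhibit astacin metalloproteases, had 9.84 and 9.41 against 2.61 and 2.14 CPM (log2 fold change -2.02, SE 0.21, edgeR adjusted p = 5.21e-20). Kng2, a kininogen gene, had 4.35 and 4.65 against 1.33 and 2.03 CPM (log2 fold change -1.43, SE 0.26, edgeR adjusted p = 3.67e-07).

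Set against the proteases that Cst3 inhibits, the balance of transcripts differed between the cell types. The 8 cysteine cathepsins among the 10 genes summed to 1495 and 1287 CPM per kb in DPPIV- FAPs of mouse 1 and of mouse 2 and to 1285 and 1273 in DPPIV+ FAPs. Divided by the CPM per kb of Cst3, the sum came to 1.01 and 0.905 in DPPIV- and 2.80 and 2.28 in DPPIV+ FAPs. The quotient was thus 2.77 times as high in the DPPIV+ FAPs of mouse 1 and 2.52 times in those of mouse 2, and it is a ratio of RNA levels, not of proteins or activity.

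Of 13 further cathepsin genes, 10 had 0 reads in all 4 libraries, and only Ctso, a widely expressed cysteine cathepsin, was tested. Ctso was higher in DPPIV+ FAPs, opposite to the 4 called cathepsins, with 82.5 and 72.6 CPM in the DPPIV- FAPs of mouse 1 and of mouse 2 and 102.8 and 94.3 CPM in the DPPIV+ FAPs. The cell types did not overlap, and the log2 fold change was 0.35 (SE 0.07, edgeR adjusted p = 9.41e-07).

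Of 15 genes that bring cathepsins to the lysosome and mature them, 2 were called higher, 3 lower and 10 not called (median log2 fold change -0.07), shares near the 15.9% and 17.2% of all genes tested. Lgmn, the gene of legumain, an asparaginyl endopeptidase that processes cathepsins to their final form, had 116 and 127.5 CPM in the DPPIV- cells, mouse 1 first, against 79.9 and 75.7 CPM in the DPPIV+ cells (log2 fold change -0.65, SE 0.07, edgeR adjusted p = 3.59e-21). The groups did not overlap, and the log2 ratio was lower in mouse 2 (-0.75) than in mouse 1 (-0.54), the reverse of the order in the 10 cathepsins. Scarb2, the receptor that sorts glucocerebrosidase, fell by 0.41 on the log2 scale, and Igf2r, the large mannose 6-phosphate receptor, fell by 0.26. The sorting receptor Sort1 rose by 0.30 and the adaptor Gga2 by 0.22, but DESeq2 called neither (adjusted p = 0.236 and 0.249).

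In the other lists of lysosomal genes most members were not called, and the shares called are to be read beside the same 15.9% higher and 17.2% lower over all genes. Of 15 lysosomal membrane proteins 2 were higher, among them Lamp1 (log2 fold change 0.22), and 2 lower, Laptm4b (-0.72) and Cd63 (-0.31). Of 16 subunits of the vacuolar ATPase tested, 3 were higher, led by Atp6v0e2 (1.43) and Atp6v1e1 (0.45), and 4 were lower, by -0.24 (Atp6v1g1) at most. Of 36 other lysosomal hydrolases 3 were higher, with Prcp (0.43), a carboxypeptidase, and Tpp1 (0.35), a tripeptidyl peptidase, in front, and 6 were lower. Among the latter, Acp5, tartrate-resistant acid phosphatase, which osteoclasts and macrophages also make, stood out at 39.0 and 29.0 against 14.8 and 14.0 CPM (log2 fold change -1.23, SE 0.10, edgeR adjusted p = 1.70e-32), close in size to Ctsc. With DESeq2 the higher and lower calls became 0 and 2 for the membrane proteins, without Lamp1, 2 and 0 for the ATPase, without Atp6v1g1, and 1 and 2 for the hydrolases, without Prcp. Of 8 regulators of lysosomal genes tested, among them Tfeb, Tfe3 and Mitf, 0 were called by edgeR or by DESeq2, with 2 higher by edgeR and 0 by DESeq2 at an unadjusted p under 0.05, and the median log2 fold change was 0.07.

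**Figure D4:**
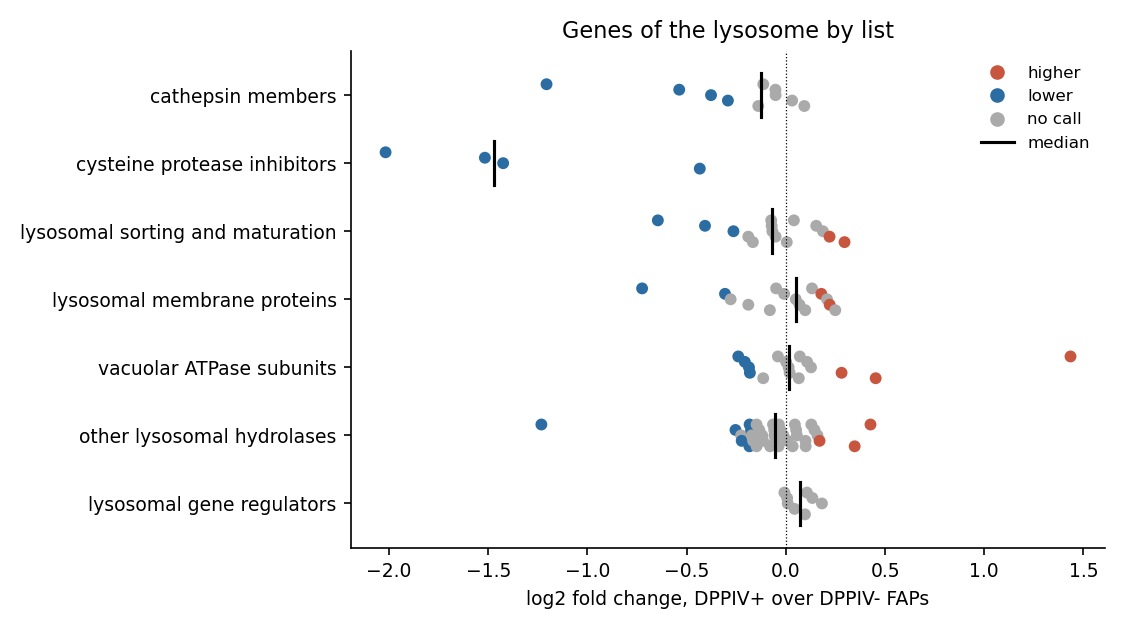
Log2 fold change of DPPIV+ over DPPIV- FAPs of every gene tested in the lists of the cathepsins, of cystatins and related proteins (labelled as inhibitors) and of the rest of the lysosome. Genes are coloured by call, with the median of each list as a bar. The 4 tested genes of cystatins and related proteins all lie to the left of 0, while the other lists spread around 0 with single genes far out.

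Genes that work with single cathepsins gave 0 higher and 2 lower of 7 by edgeR, also at an unadjusted p under 0.05, and DESeq2 called 0. Glb1, a partner of Ctsa, fell by 0.18 on the log2 scale, and Neu1 had a log2 fold change of -0.08 (edgeR adjusted p = 0.588). Cd74, the invariant chain that Ctss degrades, had 62.4 CPM in mouse 1 and 29.9 in mouse 2 among DPPIV- cells, and 42.9 and 29.5 CPM among DPPIV+ cells (log2 fold change -0.31, edgeR adjusted p = 0.000558). As in Ctss, the values overlapped and the DPPIV- FAPs of mouse 1 were the highest. The MHC class II genes H2-Aa and H2-Ab1 had log2 fold changes of 0.01 and -0.11 and did not pass. The remaining partners tested, S100a10 and Anxa2, had log2 fold changes of 0.09 and 0.07 (edgeR adjusted p = 0.351 and 0.544).

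Promoters of the cathepsins differed in a motif of lysosomal genes. TFEB and related factors bind the E-box CACGTG within the CLEAR element, whose core was searched here as TCACGTGA, which contains the E-box. Both motifs read the same on both strands. The 250 bases upstream of each start, from RefSeq (GRCm38.p6), were at hand for 8 of the 10 genes, all but Ctsb and Ctsh. The E-box was found in Ctsa, Ctsd, Ctsf and Ctsl, where none of the genes was called, and the CLEAR core in Ctsa and Ctsd. In Ctsl, and at the later start of Ctsa, the window with the match lay inside the gene as annotated in GENCODE M21. In Ctsd, the stretch with the CLEAR core also lay inside the annotated gene, and only the stretch with its further E-box lay upstream of it. The matches in Ctsl and Ctsa and the CLEAR core of Ctsd are therefore not upstream of the outermost annotated start. The E-box was found in the windows of none of Ctsc, Ctsk, Ctss and Ctsz, which were called lower, nor of Ctso or Cst3. Of all 32851 windows of this length 6.02% held the E-box and 0.785% the CLEAR core, and of the 8877 genes tested that had a window 9.89% and 1.80%. Other lysosomal lists were above these shares too. The E-box was in 36.4% of sorting genes, 30.8% of membrane proteins, 25.0% of other hydrolases and 18.2% of ATPase subunits. The CLEAR core was in 18.2%, 15.4%, 7.14% and 9.09% of the same lists, and 0 of 6 regulators held either motif. Ctsd held 2 matches, the CLEAR core 99 bases and a further E-box 245 bases before its RefSeq start. The matches are shown with the motif in capitals, on the strand of the gene, in stretches of GRCm38.p6 at chr2:164833743-164833772 (Ctsa, at the later of its starts), chr7:142387908-142387937 and chr7:142388048-142388077 (Ctsd), chr19:4855074-4855103 (Ctsf) and chr13:64370739-64370768 (Ctsl).
Ctsa (plus strand): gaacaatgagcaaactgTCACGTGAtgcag
Ctsd (minus strand), CLEAR core: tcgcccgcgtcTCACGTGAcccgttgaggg
Ctsd (minus strand), E-box: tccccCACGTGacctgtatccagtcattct
Ctsf (plus strand): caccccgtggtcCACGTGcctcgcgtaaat
Ctsl (minus strand): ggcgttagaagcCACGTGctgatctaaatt

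For Ctsc and Ctsk, the pair with the largest changes, the whole 250 bases are shown, at chr7:88277835-88278084 and chr3:95498960-95499209, both on the plus strand. Their base composition was unlike, with 60.4% G and C for Ctsc and 43.2% for Ctsk. A match is a description of the sequence, and its absence says only that these letters are not in the window.
Ctsc: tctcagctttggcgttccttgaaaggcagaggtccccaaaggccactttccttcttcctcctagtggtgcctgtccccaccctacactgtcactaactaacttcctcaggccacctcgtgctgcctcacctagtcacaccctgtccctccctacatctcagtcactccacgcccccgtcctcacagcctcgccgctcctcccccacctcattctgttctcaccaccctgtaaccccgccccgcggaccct
Ctsk: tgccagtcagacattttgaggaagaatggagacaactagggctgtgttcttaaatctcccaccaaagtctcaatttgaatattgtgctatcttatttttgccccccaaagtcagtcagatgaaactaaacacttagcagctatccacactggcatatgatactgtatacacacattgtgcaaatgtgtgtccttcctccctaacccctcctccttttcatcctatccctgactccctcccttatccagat

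Some of the genes share exon sequence with other genes, and the strand setting of the counting was not given in the sources used here. Exons of Ctsa (chromosome 2, 164832873-164841032) share 495 bases with Pltp, which had 504 to 1333 reads, and 324 bases with Neurl2, which had 4 to 19 reads, and those of Ctsb (chromosome 14, 63122462-63145923) share 774 bases with Fdft1, which had 154 to 329 reads. Ctsz shares 10 bases with Nelfcd. These 4 genes are on the opposite strand. The longest overlap was that of Ctsl with Gm47123, 1742 bases on the opposite strand, and Ctsl also shares 395 bases with Gm49230 and Ctsd 808 bases with Gm49369, both on the same strand. These 3 Gm genes are not among the 24421 genes counted, and they hold stretches at 100% identity to Ctsl or Ctsd. The annotation used for the counting was not given, so how reads there were assigned is unsure. The levels of Ctsl and Ctsd are uncertain to that extent. Ctsc, Ctsk, Ctss, Ctsf and Ctsh share no exon with another gene of GENCODE M21, and no other transcript of at least 97% identity over 50 bases or more was found for them.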

How the data were processed

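RNA of sorted FAPs was sequenced as paired-end reads on an Illumina sequencer. Library preparation is named differently in the labels (NEBNext Ultra II Stranded) and in the methods (TruSeq Stranded mRNA). The authors demultiplexed with bcl2fastq 2.20, aligned to mm10 with STAR and counted per gene with RnaReadCounter, and deposited raw counts without normalization. The annotation release and strand setting are not given in the sources used here.

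From these counts, genes were kept that reached 2 CPM in 2 or more libraries. They were scaled by TMM and tested with edgeR 4.0.16 (glmQLFit and glmQLFTest, two-sided, Benjamini-Hochberg over all genes kept, threshold 0.05) in R 4.3.3, with mouse and cell type in the model. The SE is the log2 fold change over the square root of F. Each gene has 1 residual degree of freedom and the prior was infinite, so the spread came from the trend over abundance alone, and p-values are very small. Ratios per mouse used a prior count of 0.125. Alternatives were DESeq2 1.42.0, limma-voom (limma 3.58.1), no mouse block, other scalings and filters, robust moderation, a test against 1.5-fold, and each mouse left out. The fit was also run on counts simulated without a difference between mice. That simulation could not test how the very small p-values hold across animals.

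The titles give each animal 1 DPPIV- and 1 DPPIV+ library, and the study's model includes the animal, and mouse therefore entered as a block. Across genes, mouse 2 minus mouse 1 in DPPIV- and in DPPIV+ FAPs correlated at 0.415 (genes are no independent replicates). An exact test over 2 mice could not reach the threshold, so ratios have no p.

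CPM used TMM-scaled library sizes. CPM per kb used the best-supported principal transcript of GENCODE M21, a length chosen after exon-union lengths had been seen. Promoter windows are RefSeq's. The members and gene lists were chosen with earlier results of these data known. The text names all members, the inhibitors, partners and other cathepsins tested, and from each further list at most the 4 genes with the largest change in each direction and the same sign in both mice.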

Additional observations from a re-analysis of the deposited data

How the results depend on the processing

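No cathepsin was called higher in any setting with a test. Lower calls were 4 with edgeR and 3 with DESeq2 or without the replicate block, both without Ctss, 5 with upper-quartile scaling, which added Ctsa, and 1 (Ctsc) in the test against 1.5-fold. Ctsh turned to a log2 fold change of -0.011 with upper-quartile scaling. Of all genes, 1837 higher and 1989 lower calls became 923 and 995 with DESeq2, 1001 and 1119 without the block for pairing by mouse, and 436 and 656 against 1.5-fold. The block also changed the call of Ctss (adjusted p = 0.373 without it) and of no other cathepsin. Genes different between the mice numbered 1041, and 110 with DESeq2. The cause of these shifts was not tested. With 1 mouse left out, 1 library per cell type remained and no test or count of calls was possible. The log2 fold change of Ctsc was then -1.40 to -1.01, of Ctsk -0.70 to -0.38, of Ctss -0.57 to -0.15 and of Ctsz -0.33 to -0.26. The quotient of cathepsins over Cst3 in DPPIV+ relative to DPPIV- FAPs was 2.64 as a mean over mice and 2.48 with exon-union lengths, an alternative chosen after seeing the data. Exon-union lengths also moved the level per kb of Ctsl in DPPIV- FAPs from 466 to 142. With 2 mice, p-values rest on a spread shared across genes, and the libraries of 2 animals limit every statement here.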
